A study of Mus musculus with 5 samples.

Results

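The genes described here encode 9 transcription factors that drive the epithelial-mesenchymal transition (EMT): Snai1, Snai2, Zeb1, Zeb2, Twist1, Twist2, Prrx1, Foxc2 and Tcf4. They were chosen by symbol, and all 9 were found among the 46959 gene symbols of the count tables. The tables come from D4m.3a, the Dartmouth murine mutant malignant melanoma-3A line, established from a C57BL/6 mouse and used at passages 7 to 12. As background, the line is known to come from a mouse melanoma with mutant Braf, which both groups share. The control group was this line with the pBABE retroviral vector (2 libraries, labelled as control genotype), and the other group was this line with caMNK, a constitutively active MNK kinase (3 libraries). The labels name MNK1 in the extraction notes and do not give the species of the introduced cDNA, or say whether either line is a clone. No drug treatment is given for either group. Total RNA was sequenced, and the comparison asks which genes differ between caMNK and pBABE cells. Libraries of a group are described as biological replicates with no account of how cultures were separated, so the p-values measure the spread between these libraries, and group and cell line cannot be told apart.

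EMT transcription factors bind DNA and switch cells from an adherent, epithelial programme to a motile, mesenchymal one. SNAIL (Snai1), SLUG (Snai2) and the ZEB proteins are zinc-finger repressors that bind E-box sequences in the promoters of adhesion genes such as Cdh1, which encodes E-cadherin. TWIST proteins and TCF4 are basic helix-loop-helix factors that bind E-boxes as dimers, PRRX1 is a homeobox factor and FOXC2 a forkhead factor. In the melanocyte lineage the family does not act as a single block: SLUG and ZEB2 belong to the normal melanocytic programme, while ZEB1 and TWIST1 mark dedifferentiated, invasive melanoma cells.

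Of the 9 genes, Snai1 rose in caMNK cells, about 2.16-fold, and 0 fell, where 4.42% of all genes tested rose and 3.52% fell. The other 8 did not pass the test, although for Zeb1, Twist2, Foxc2 and Tcf4 every caMNK library lay above both pBABE libraries. The same upward pattern was found in 22.3% of all genes tested, and groups that do not overlap, in either direction, in 44.9%. Snai2, the closest relative of Snai1 in the set, had almost the same mean in both groups. Tests were made with edgeR's quasi-likelihood test on all 17026 genes that passed its filter on low counts, with Benjamini-Hochberg adjustment over all of them and a threshold of 0.05, and all 9 genes passed that filter. Levels are in CPM, the counts of a gene scaled to a common library total after TMM adjustment, and fold changes are caMNK over pBABE.

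The promoter of Snai1 is shown because Snai1 was the member past the threshold. RefSeq (GRCm38.p6) promoter windows, from 250 bases before the start site to 50 after, were at hand for 5 of the 9 members. The Snai1 window is chr2:167537945-167538244 on the plus strand, and capitals mark its E-box.

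Snai1: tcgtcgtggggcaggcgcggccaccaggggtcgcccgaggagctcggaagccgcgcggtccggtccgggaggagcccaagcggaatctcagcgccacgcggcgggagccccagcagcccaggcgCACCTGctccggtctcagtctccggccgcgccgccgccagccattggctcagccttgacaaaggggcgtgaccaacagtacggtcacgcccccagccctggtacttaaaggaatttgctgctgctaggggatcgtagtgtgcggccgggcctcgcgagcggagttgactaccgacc

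The capitals read CACCTG, the core that SNAIL and ZEB zinc fingers recognise, and lie from 126 to 121 bases before the start site. Searched on both strands (as CACCTG or CAGGTG), this core is in 20.21% of all 32851 promoter windows of the same length, so its presence is common. The wider E-box CANNTG, which includes CACCTG, is in 72.31% of windows. It matched in the Snai1 window once, at the CACCTG itself, and in none of the windows of Zeb2 (4 start sites, of which 2 have overlapping windows), Twist1, Twist2 and Prrx1. The motif TGANTCA of AP-1, in 7.81% of windows on both strands, matched at 2 places in 1 of the Zeb2 windows. The EGR motif GCGGGGGCG, in 2.91%, matched in the Twist2 window, and the EGR motif GCGTGGGCG, in 0.61%, in none of them. These matches describe the letters in the windows, and no binding was measured.

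The check of the labels came from Mknk1, the gene of MNK1, whose caMNK libraries lay between 155 and 168 CPM against 15.2 and 16.7 CPM for pBABE (edgeR adjusted p = 4.81e-06). The libraries held between 27827199 and 48794336 counts, and no pair was alike within sampling noise (chi-square per degree of freedom of 6.35 or more). By this measure caMNK replicates 2 and 3 stood as far apart, at 49.1, as pairs across the groups, at 32.1 to 58.9. The other caMNK pairs were closer, at 9.0 for replicates 1 and 3 and 22.3 for replicates 1 and 2. Counts cover the whole gene body, introns included, without strand between overlapping genes. Of 17 pigment cell markers, 13 were under 1 CPM in every library. Among those that define pigment cells, Dct had 0 counts in all 5 libraries, Sox10 in 4 of 5, and Tyr and Mlana stayed under 0.1 CPM, so these defining pigment markers were absent or close to 0 in the labelled melanoma line. Mitf was between 4.35 and 6.48 CPM and Pax3 between 21.3 and 26.7 CPM. Marker lists of other cells were read in the same libraries. The summed immune markers ranged from 13.4 to 15.0 CPM in pBABE and 13.3 to 18.2 CPM in caMNK. Ptprc was at or under 0.12 CPM, and 9 of 11 were under 1 CPM. Most of the sum came from Csf1r, which shares reads with Hmgxb3 and lay between 10.7 and 13.7 CPM. Of 6 endothelial markers 3 were tested (median log2 fold change 0.82). Cdh5 fell, though not without pBABE replicate 2 or caMNK replicate 1 (from 4.89 and 8.80 CPM to between 2.27 and 2.81 CPM), while Tek and Pecam1, both under 1 CPM, had log2 fold changes of 0.82 and 1.07 (adjusted p of 0.213 and 0.264). Of 6 keratinocyte markers Ivl rose, though not without either pBABE library (from 0.456 and 0.341 CPM to between 1.42 and 2.32 CPM). The summed fibroblast markers were 116 to 132 CPM in pBABE and 99.7 to 117 CPM in caMNK, mostly Cd248 and Pdgfra, and 5 of 8 were under 1 CPM. The summed pigment cell markers were 31.4 to 34.2 CPM in pBABE and 33.8 to 36.6 CPM in caMNK. Such sums are over different genes without regard to length, so the lists cannot be ranked by them.

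Per kilobase of gene body, Twist1 was the most abundant member. It measured 31.1 ± 1.28 CPM per kb in pBABE and 34.6 ± 2.55 in caMNK (mean ± SD, n = 2 and 3 here and throughout). Foxc2 followed at 9.55 ± 0.948 and 13.0 ± 1.57 CPM per kb, Prrx1 at 5.86 ± 0.345 and 5.68 ± 0.983, and Snai2 at 3.79 ± 0.0297 and 3.76 ± 0.516. Snai1 was the fifth, at 1.18 ± 0.0481 and 2.55 ± 0.195 CPM per kb. Zeb2 (0.744 ± 0.0208 in pBABE) and Tcf4 (0.730 ± 0.0206) came next and overlapped over the libraries, as did the last pair, Zeb1 (0.244 ± 0.00212) and Twist2 (0.195 ± 0.0133). All other neighbours in this order were apart in every library. The scale counts introns as length: exons make up 5.59% of the Zeb1 body, 6.82% of Twist2, 7.92% of Tcf4, 14.91% of Zeb2 and 16.13% of Prrx1, against 35.09% of Snai1 and 100% of the single-exon Foxc2. Per kilobase of exon, Twist1 (41.0 CPM per kb in pBABE) and Prrx1 (36.3) led and overlapped, Zeb1 (4.36), Zeb2 (4.99) and Snai2 (6.65) lay close together, and Snai1 (3.37) and Twist2 (2.86) were lowest in pBABE. In caMNK, Snai1 measured 7.26 CPM per kb of exon, above Snai2 (6.58), Zeb1 (5.29), Zeb2 (5.21) and Twist2 (4.15) by the group means.

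**Figure D1:**
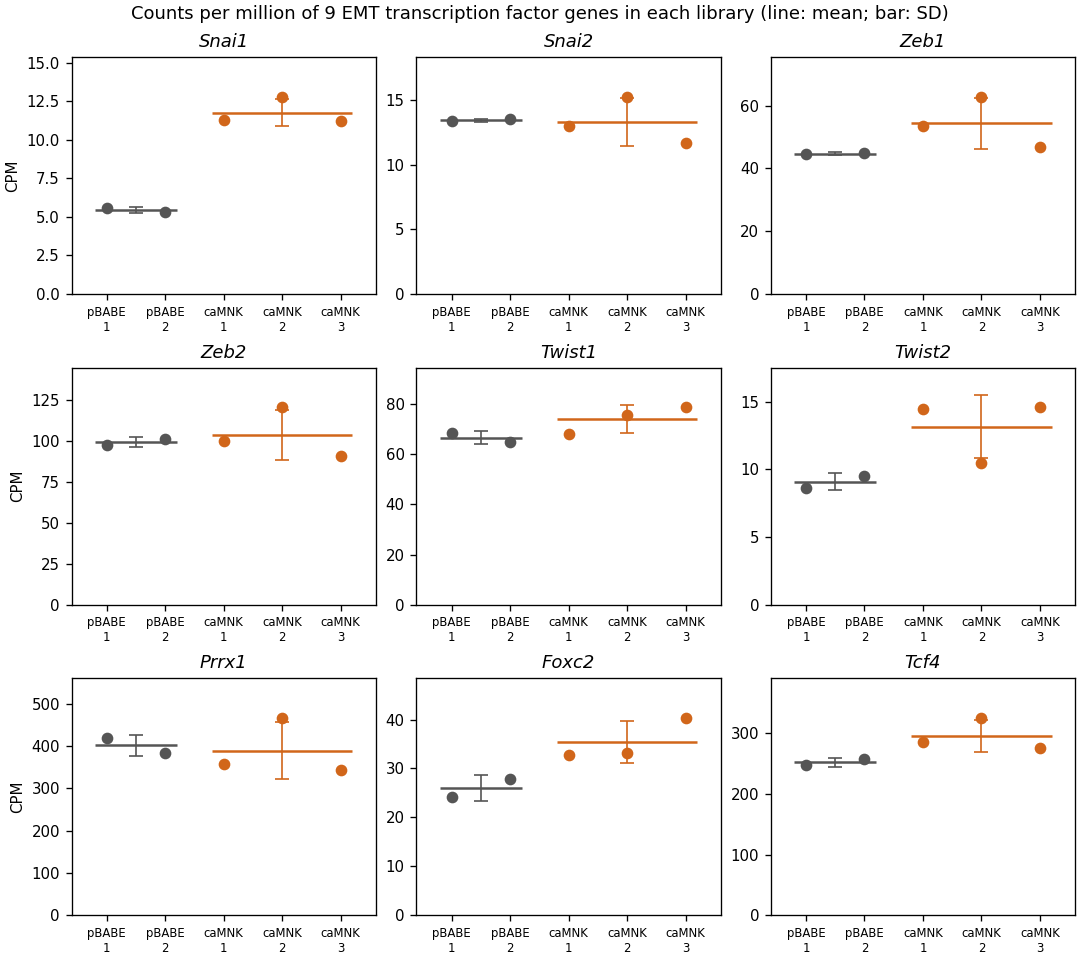
CPM (vertical axes, each starting at 0) of the 9 genes in 2 pBABE libraries (grey) and 3 caMNK libraries (orange), with the group mean as a line and the SD as a bar. Snai1 lies between 5.30 and 5.61 CPM in pBABE and between 11.2 and 12.8 CPM in caMNK, while the groups of Snai2, Zeb2, Twist1 and Prrx1 overlap.

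SNAIL and SLUG are close paralogs that act on many of the same E-boxes. Snai1 (ENSMUSG00000042821.7, GRCm38, chromosome 2, 167538195 to 167542814, plus strand) measured 5.61 and 5.30 CPM in pBABE, against 11.3, 12.8 and 11.2 CPM in caMNK. The 3 caMNK libraries lay close together and far above both pBABE libraries. Snai1 had a log2 fold change of 1.11 in the fit (SE 0.128, 95% interval 0.818 to 1.40, edgeR adjusted p = 0.00504). Raw counts were 234 and 171 for pBABE, against 324, 623 and 415 for caMNK, and the gene overlaps no other gene of the annotation. Of all genes tested, 4.42% rose, 3.52% fell and 7.94% did either, against 1 of 9 members. The call needs both pBABE libraries: without pBABE replicate 1 the adjusted p was 0.0927 and without pBABE replicate 2 it was 0.0681, with log2 fold changes of 1.14 and 1.07. In the same libraries 6 of 10 tested mitochondrial mRNAs and 5 of 8 tested nuclear non-coding RNAs rose, and 1 of the latter fell (Malat1, which shares reads with Gm37376, rose from 169 and 169 CPM to between 259 and 486 CPM, though not without either pBABE library or caMNK replicate 1). By edgeR none of the 10 and none of the 8 passed without pBABE replicate 1 (6 and 6 at an unadjusted p under 0.05) or pBABE replicate 2 (8 and 7). Without caMNK replicate 1, 2 and 3 rose, and without caMNK replicate 3, 9 and 6. Their part in the result was not tested. Without caMNK replicate 2 the log2 fold change of Snai1 was 1.04 (edgeR adjusted p = 1.36e-05). In that setting 2325 of all 16675 genes tested rose and 2617 fell.

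Snai2 (chromosome 16, 14705852 to 14709385, plus strand) measured 13.4 and 13.5 CPM in pBABE, against 13.0, 15.3 and 11.7 CPM in caMNK. The caMNK libraries lay on both sides of the pBABE pair. The log2 fold change was −0.01 (SE 0.133, 95% interval −0.314 to 0.294, adjusted p = 0.974), so a change as large as that of Snai1 lies outside the interval. The log2 ratio of Snai1 to Snai2, taken within each library on CPM + 0.5, was −1.18 and −1.27 for pBABE, against −0.191, −0.245 and −0.0555 for caMNK. The groups did not overlap, and the means differed by 1.06 (exact two-sided permutation p = 0.1, adjusted p = 0.15 over 3 paralog pairs). With 2 against 3 libraries, 0.1 is the smallest p this test can give. The third family gene, Snai3, had 0 counts in all 5 libraries, which allows up to between 0.0615 and 0.108 CPM (3 counts, counting error only).

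ZEB1 and ZEB2 are large repressors with zinc-finger clusters at both ends, and both are targets of the miR-200 family. Zeb1 (chromosome 18, 5591860 to 5775467, plus strand) measured 44.5 and 45.0 CPM in pBABE, against 53.4, 62.9 and 46.7 CPM in caMNK. Every caMNK library was above the pBABE pair, caMNK replicate 3 by little. For Zeb1 the fold change was 0.28 on the log2 scale (SE 0.126, 95% interval −0.00677 to 0.570, adjusted p = 0.202). It passed without caMNK replicate 3 (adjusted p = 0.0452), where 938 of all 16833 genes tested rose. Zeb2 (chromosome 2, 44983632 to 45117395, minus strand) measured 97.6 and 102 CPM in pBABE, against 99.9, 121 and 91.1 CPM in caMNK. The groups overlapped, with caMNK replicate 2 highest and replicate 3 lowest. For Zeb2 the fold change was 0.06 on the log2 scale (SE 0.123, 95% interval −0.217 to 0.343, adjusted p = 0.794). Antisense Zeb2os lies within Zeb2, with counts equal to 2.11% of those of Zeb2.

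Both genes varied among the caMNK libraries, and the ratio of Zeb1 to Zeb2 varied little there. Its log2 value was −1.13 and −1.16 for pBABE, against −0.897, −0.937 and −0.955 for caMNK. Every caMNK library was above both pBABE libraries, and the means differed by 0.215, with an SD of 0.0277 in pBABE and 0.0296 in caMNK (exact permutation p = 0.1, adjusted p = 0.15). The ratio compares counts over whole gene bodies of different length, so its level depends on length, and both genes are over 100 kb long.

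**Figure D2:**
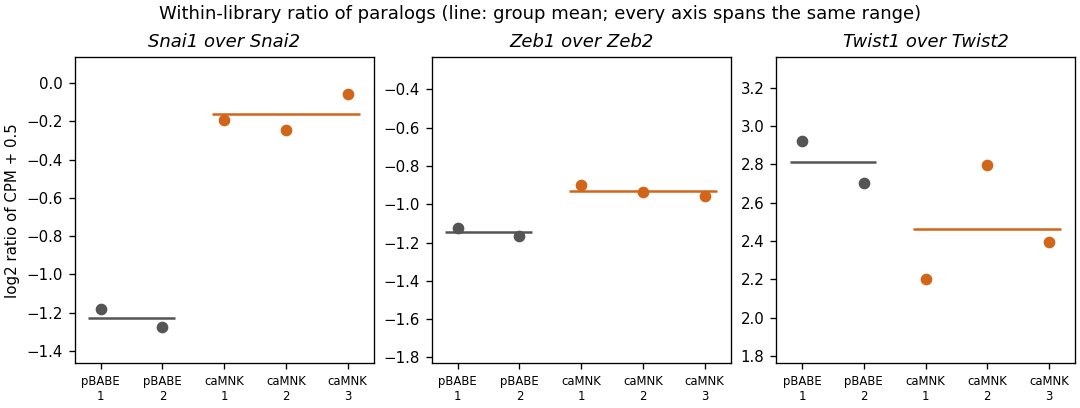
The log2 ratio of CPM + 0.5 between paralogs (vertical axes, each spanning the same range) in each library, with the group mean as a line, pBABE in grey and caMNK in orange. The ratios of Snai1 to Snai2 and of Zeb1 to Zeb2 are higher in all 3 caMNK libraries than in both pBABE libraries, while that of Twist1 to Twist2 overlaps.

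The miR-200 family is shown because these microRNAs repress Zeb1 and Zeb2 and are repressed by them in turn. The mature 3p strands (RefSeq, GRCm38.p6) fall into 2 groups by seed, bases 2 to 8, in capitals.
mmu-miR-200b-3p: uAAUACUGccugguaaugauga
mmu-miR-200c-3p: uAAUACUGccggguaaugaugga
mmu-miR-429-3p: uAAUACUGucugguaaugccgu
mmu-miR-200a-3p: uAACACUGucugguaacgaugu
mmu-miR-141-3p: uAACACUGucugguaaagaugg
The first 3 share the seed AAUACUG and the last 2 the seed AACACUG. All 5 precursor genes, Mir200a, Mir200b, Mir200c, Mir141 and Mir429, had 0 counts in all 5 libraries. The protocol was a total RNA library and not a small RNA library, so mature microRNAs were not measured.

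TWIST1 and TWIST2 are near-identical in their DNA-binding part and pair with E proteins, of which TCF4 (also called E2-2) is an example. Twist1 (chromosome 12, 33957671 to 33959829, plus strand) measured 68.7 and 64.8 CPM in pBABE, against 68.2, 75.6 and 78.9 CPM in caMNK. The groups overlapped through caMNK replicate 1 (log2 fold change 0.15, SE 0.0941, 95% interval −0.0609 to 0.369, adjusted p = 0.347). Twist2 (chromosome 1, 91801461 to 91848028, plus strand) measured 8.64 and 9.51 CPM in pBABE, against 14.4, 10.5 and 14.6 CPM in caMNK. Every caMNK library was above the pBABE pair, caMNK replicate 2 by little. Its log2 fold change was 0.53 (SE 0.166, 95% interval 0.154 to 0.910, adjusted p = 0.0842), the largest of the members after Snai1. It passed by DESeq2 (adjusted p = 0.0356) and without caMNK replicate 2 (0.000243). Without that library 2325 of all 16675 genes tested rose. By DESeq2 943 of all 17026 did, against 753 by edgeR with all libraries. Twist2 shares reads with Gm29100, a gene on the opposite strand over 1477 bases, whose counts equal 66.4% of those of Twist2. Gm29100 itself measured 6.50 and 6.38 CPM in pBABE, against 8.75, 6.73 and 9.68 CPM in caMNK. The log2 ratio of Twist1 to Twist2 was 2.92 and 2.70 for pBABE, against 2.20, 2.80 and 2.39 for caMNK, with overlapping groups (difference −0.348, exact permutation p = 0.3).

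Tcf4 (chromosome 18, 69343356 to 69689079, plus strand) measured 247 and 257 CPM in pBABE, against 287, 326 and 276 CPM in caMNK. Every caMNK library was above the pBABE pair by a modest step. For Tcf4 the fold change was 0.23 on the log2 scale (SE 0.0975, 95% interval 0.00826 to 0.454, adjusted p = 0.179). The other E protein genes, Tcf3 and Tcf12, had log2 fold changes of −0.02 and −0.04 (adjusted p of 0.912 and 0.869).

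Id proteins lack a DNA-binding region and hold E proteins and their TWIST partners in inactive dimers, and 2 of the 4 Id genes rose (4.42% of all genes did). Id2 rose from 3.81 and 3.47 CPM to 12.0, 7.71 and 9.84 CPM, 2.68-fold higher (1.42 on the log2 scale with an SE of 0.203, adjusted p = 0.00827). Id4, which shares reads with A330033J07Rik, rose from 4.97 and 4.83 CPM to 12.0, 8.91 and 11.7 CPM, 2.21-fold (log2 fold change 1.14, adjusted p = 0.00827). Both were lowest among caMNK in replicate 2 and still above the pBABE pair there. Id1 measured 35.1 and 35.2 CPM in pBABE, against 50.1, 39.5 and 55.3 CPM in caMNK (adjusted p = 0.0810), and Id3 differed by 0.35 on the log2 scale (adjusted p = 0.113). All 4 Id genes were higher in every caMNK library than in both pBABE libraries, a pattern found in this direction in 22.3% of all genes tested. Without pBABE replicate 1 the adjusted p was 0.112 for Id2 and 0.129 for Id4, and without pBABE replicate 2 it was 0.0829 and 0.0881. All 4 Id genes passed without caMNK replicate 2, where 2325 of all 16675 genes tested rose and 2617 fell.

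PRRX1 is a mesenchymal homeobox factor. Prrx1 (chromosome 1, 163245119 to 163313710, minus strand) had the highest CPM of the 9 genes without regard to length, 418 and 385 CPM in pBABE and 358, 467 and 344 CPM in caMNK. The groups overlapped, with caMNK replicate 2 above and the other caMNK libraries below the pBABE pair (log2 fold change −0.04, SE 0.135, 95% interval −0.353 to 0.266, adjusted p = 0.876). Without caMNK replicate 2 Prrx1 was past the threshold in the lower direction (log2 fold change −0.20, adjusted p = 0.0479). In that setting 2617 of all 16675 genes tested fell, against 599 of 17026 with all libraries. Its relative Prrx2 measured 8.52 and 8.18 CPM in pBABE, against 11.7, 9.42 and 11.8 CPM in caMNK (log2 fold change 0.39, adjusted p = 0.120).

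FOXC2 is a forkhead factor of mesenchyme and of vessels. Foxc2 (chromosome 8, 121116171 to 121118895, plus strand) measured 24.2 and 27.9 CPM in pBABE, against 32.7, 33.3 and 40.3 CPM in caMNK. Every caMNK library was above the pBABE pair. Its log2 fold change was 0.45 (SE 0.124, 95% interval 0.162 to 0.730, adjusted p = 0.0636). It passed by DESeq2 (adjusted p = 0.0216), with total-count scaling (0.0449) and without caMNK replicate 2 (0.00255). Of all 17026 genes tested, 943 rose by DESeq2 and 999 with total-count scaling, against 753 by edgeR with TMM. Without caMNK replicate 2, 2325 of 16675 did. Foxc2 lies wholly inside the read-through gene Gm20388, so reads of both cannot be told apart there. Foxf1, inside the same read-through gene, measured 9.24 and 9.42 CPM in pBABE, against 11.4, 14.7 and 12.7 CPM in caMNK (log2 fold change 0.48, adjusted p = 0.0662), and Foxc1 differed by −0.05 on the log2 scale (adjusted p = 0.872). Of the 15 relatives of the members, 6 were abundant enough to test and 0 passed by edgeR. At an unadjusted p under 0.05 there were 2, where 25.9% of all genes tested reached it, and DESeq2 called Foxf1. Without caMNK replicate 2, where 2325 of all 16675 genes tested rose, 3 of these relatives did. Their log2 fold changes included 0.30 for Foxf2 (adjusted p = 0.218), and 6 others had 0 counts in all libraries.

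**Figure D3:**
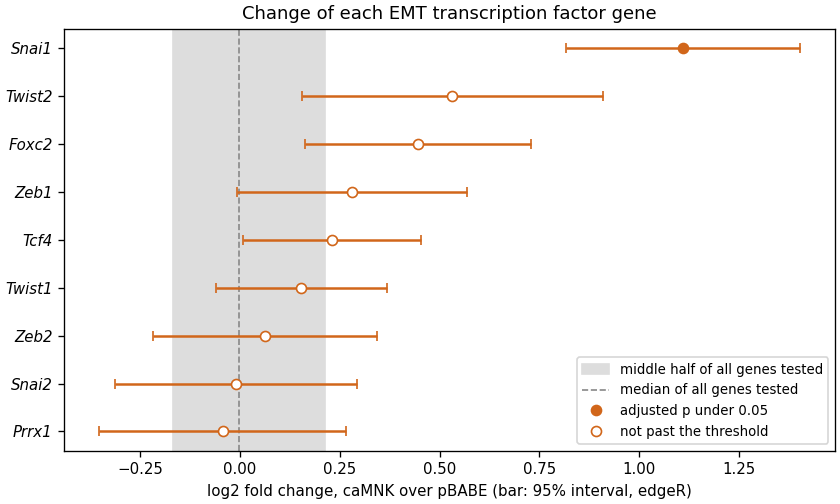
The log2 fold change of each gene, caMNK over pBABE (horizontal axis), with its 95% interval from edgeR as a bar. The filled point is the gene past the adjusted threshold, Snai1, and the grey band is the interquartile range of all 17026 genes tested, −0.168 to 0.214.

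As a group, 7 of 9 members had a positive log2 fold change and 2 a negative one. The median was 0.23, against 0.00 (−0.0021) over all genes tested, of which 49.6% were positive. With total-count scaling these medians were 0.28 and 0.05. In 5 of 9 members every caMNK library was above both pBABE libraries, and in 0 below, against 22.3% and 22.6% of all genes tested. An unadjusted p under 0.05 was reached by 4 of 9 members and by 25.9% of all genes.

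The caMNK libraries did not move together for the family. In Snai1, Snai2, Zeb1, Zeb2, Prrx1 and Tcf4, caMNK replicate 2 was highest and replicate 3 lowest of the caMNK libraries. Replicate 3 was highest for Twist1, Twist2 and Foxc2. The log2 distance of replicate 2 from the mean of replicates 1 and 3 was 0.413 for Prrx1, 0.342 for Zeb2, 0.333 for Zeb1, 0.313 for Snai2, 0.213 for Tcf4 and 0.187 for Snai1, against 0.0437 for Twist1, −0.126 for Foxc2 and −0.474 for Twist2. Gene length moved with this distance over all genes: its median was −0.0668 for the 3666 genes of up to 5 kb and 0.117 for the 1937 genes over 100 kb. Zeb1, Zeb2 and Tcf4 are over 100 kb and Prrx1 is 68.6 kb, while Snai2 is 3.54 kb and Twist2, with the opposite sign, 46.6 kb. The median log2 fold change also differed with length, at 0.04 for genes of 5 to 20 kb and −0.07 for those of 50 to 100 kb. The part of gene length in the members' pattern and in the paralog ratios was not tested.

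**Figure D4:**
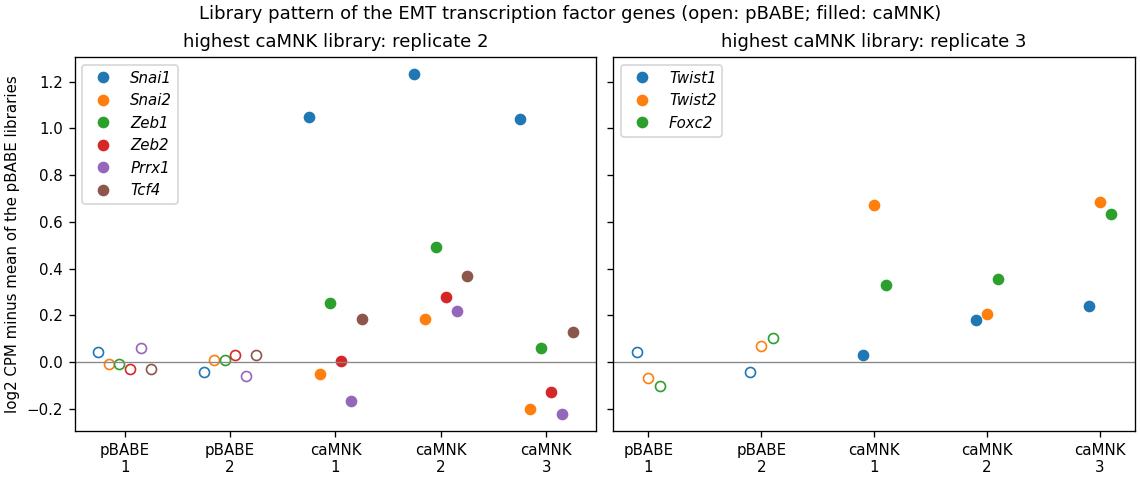
The log2 CPM of each gene minus its mean over the 2 pBABE libraries (vertical axis), by library, with open points for pBABE and filled points for caMNK. The left panel holds the 6 genes highest in caMNK replicate 2 and the right panel the 3 highest in replicate 3, and Snai1 stands at 1.04 to 1.23 in all 3 caMNK libraries.

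Other transcription factors that induce EMT changed in 2 of 19 tested genes, both upward, against 7.94% of all genes tested. Sox9, a neural crest and invasion-associated factor, rose from 21.1 and 23.5 CPM to 42.9, 46.2 and 50.1 CPM (1.06 on the log2 scale with an SE of 0.107, adjusted p = 0.00336). Sox4, which shares reads with Gm26735, rose from 195 and 220 CPM to between 297 and 333 CPM (0.59, adjusted p = 0.0123). The list's median was 0.03. Over all 16675 genes tested without caMNK replicate 2, 2325 rose and 2617 fell. Without pBABE replicate 1 none of the 19 passed by edgeR (2 at an unadjusted p under 0.05), without pBABE replicate 2 or caMNK replicate 1 only Sox9 did, and without caMNK replicate 2 3 rose and 5 fell.

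Of the ligands and receptors known to induce EMT, 4 of 29 tested rose and 1 fell (median −0.02), against 4.42% and 3.52% of all genes tested. The activin subunit gene Inhba rose from 27.9 and 32.9 CPM to between 46.3 and 58.4 CPM, and the Notch ligand gene Jag1 from 28.5 and 34.3 CPM to between 41.0 and 55.9 CPM. The cytokine gene Il11 rose from 15.3 and 18.1 CPM to between 27.3 and 42.1 CPM, and Tgfb3, which shares reads with Ttll5 and Gm37804, from 34.3 and 32.4 CPM to between 43.5 and 48.3 CPM. Wnt5a, whose product signals without beta-catenin, fell from 6.69 and 7.16 CPM to between 3.35 and 3.81 CPM. For these 5 genes the edgeR adjusted p ranged from 0.00941 to 0.0339. Of all 16675 genes tested without caMNK replicate 2, 2325 rose and 2617 fell. Without pBABE replicate 1, pBABE replicate 2 or caMNK replicate 1, 0 of the list passed by edgeR (8, 7 and 7 at an unadjusted p under 0.05), and without caMNK replicate 2 5 rose and 7 fell.

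SNAIL and ZEB proteins repress through co-repressors and are turned over by kinases and ubiquitin ligases, and no gene of either list passed by edgeR. Among 25 co-repressor and chromatin genes the count at an unadjusted p under 0.05 was 10, where 25.9% of all genes tested reached it. DESeq2 called 0 of the 25. Without caMNK replicate 2, 1 rose and 11 fell, against 2325 and 2617 of all 16675 genes tested in that setting. The lowest p-values were those of Parp1 (log2 fold change −0.29, adjusted p = 0.0575), Mta3 (−0.34, 0.0703) and Loxl2, which shares reads with Gm27177 (0.31, 0.0738). Among 27 tested kinase, ligase and deubiquitinase genes the unadjusted count was 3, against the same 25.9%, and DESeq2 called 1, Usp9x. By DESeq2 770 of all 17026 genes tested fell. Without caMNK replicate 2, 1 of the list rose and 6 fell, beside 2325 and 2617 of all 16675 genes tested there. The lowest p was that of Usp9x, at 202 and 216 CPM in pBABE and 128, 173 and 108 CPM in caMNK (−0.61, adjusted p = 0.0638), followed by Usp47 (−0.24, 0.137) and Atm (−0.44, 0.159).

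Genes that mark the epithelial state were scarce in both groups. The list of epithelial transcription and splicing factors holds 22 genes, of which 5 are the miR-200 precursor genes at 0 counts. In all, 18 were under 1 CPM in every library, and 6 could be tested, of which 1 fell (3.52% of all genes did). Klf4, a factor of epithelial and stem cells, measured 114 and 120 CPM in pBABE, against 130, 141 and 143 CPM in caMNK (adjusted p = 0.125). Esrp2, a splicing factor, shares reads with Nfatc3 and differed by 0.20 on the log2 scale (adjusted p = 0.519). Foxa2 fell, from 0.552 and 0.775 CPM to between 0.209 and 0.267 CPM (adjusted p = 0.0430), and did not pass by DESeq2 (0.116) or without pBABE replicate 1, pBABE replicate 2, caMNK replicate 1 or caMNK replicate 3 (0 calls in the list in each, with 1 or 2 at an unadjusted p under 0.05).

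Of 41 junction and polarity genes, 29 were under 1 CPM in every library. Of the 17 that could be tested, 1 fell, against 3.52% of all genes tested. Cdh1 measured 0.144 and 0.155 CPM in pBABE, against 0.105, 0.144 and 0.108 CPM in caMNK, and Epcam at most 0.139 CPM. These levels were too low to show a difference. F11r, which encodes the junctional adhesion molecule JAM-A, fell from 6.93 and 7.69 CPM to 2.96, 2.55 and 3.19 CPM (−1.34 on the log2 scale with an SE of 0.154, adjusted p = 0.00504), and 0 of the list rose by edgeR or DESeq2. F11r did not pass without pBABE replicate 1 or pBABE replicate 2 (0 calls in the list, 3 at an unadjusted p under 0.05 in each), and without caMNK replicate 2, 3 genes of the list fell. Among all 16675 genes tested without caMNK replicate 2, 2617 fell. St14 (at most 0.324 CPM) and Itgb4, which shares reads with B230344G16Rik (at most 1.36 CPM), had log2 fold changes of 1.78 and 0.83 (adjusted p of 0.0672 and 0.0861).

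Genes of the mesenchymal state were abundant in both groups and moved in both directions, with 8 of 35 tested rising and 3 falling (median 0.09), where 4.42% of all genes rose and 3.52% fell. The intermediate filament gene Vim measured 4741 and 5025 CPM in pBABE, against between 4273 and 4702 CPM in caMNK (adjusted p = 0.466), Fn1 had a log2 fold change of 0.09 (0.621) and Cdh2, which encodes N-cadherin, 0.11 (0.435). These 3 genes are named outside the naming rule as the usual readouts. The metalloproteinase genes Mmp9 and Mmp3 rose, with log2 fold changes of 2.88 and 1.47, and the integrin gene Itgb3 by 1.17. Dnm3os, a non-coding host transcript of microRNAs and a known target of TWIST1, had a log2 fold change of 2.00 and shares reads with Dnm3. The collagen genes Col5a2 (−0.84) and Col1a1 (−0.76) fell. For these 6 genes the edgeR adjusted p ranged from 0.00121 to 0.0166. The other calls were rises of Col1a2, Fap, Thbs1 and Timp1, which shares reads with Syn1, and a fall of the integrin gene Itgav. Over all 16675 genes tested without caMNK replicate 2, 2325 rose and 2617 fell. Without pBABE replicate 1 only Dnm3os passed, without pBABE replicate 2 or caMNK replicate 1 Dnm3os, Mmp3 and Mmp9, and without caMNK replicate 2, 10 rose and 10 fell. Beside them, 6 of 10 tested mitochondrial mRNAs rose, 2 without caMNK replicate 1, 9 without caMNK replicate 3 and 0 without pBABE replicate 1 or 2 by edgeR (6 and 8 at an unadjusted p under 0.05).

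**Figure D5:**
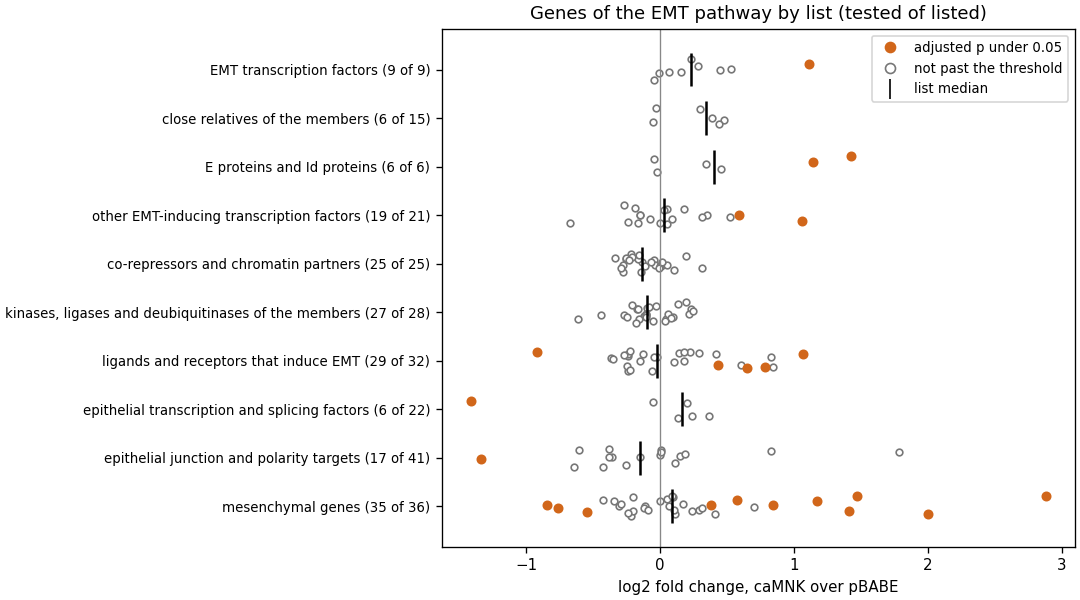
The log2 fold change, caMNK over pBABE (horizontal axis), of each tested gene of the 10 lists, with the number tested of those listed in brackets (the epithelial factors include the 5 miR-200 precursor genes). Filled points passed the adjusted threshold and black bars are list medians, from −0.149 for junction and polarity genes to 0.401 for E proteins and Id proteins.

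By profile over the 5 libraries, the genes most like Snai1, among 11059 compared, were Kcnq5, Oas1b and Ccl5. Those compared had an average log2 CPM of at least 1, with predicted genes, pseudogenes and clone or accession names passed over by symbol. Likeness is the root mean square difference of log2 CPM values centred on each gene's mean. It was 0.0487 for the potassium channel gene Kcnq5, 0.0642 for the antiviral gene Oas1b and 0.0840 for the chemokine gene Ccl5, against a median of 0.568 for all genes compared. These genes were picked for the smallest values, so lying below the median follows from the choice. Their log2 fold changes were 1.08, 1.10 and 1.06, close to that of Snai1, and a shared control was not tested. Oas1b measured 8.37 and 7.78 CPM in pBABE, against 17.1, 17.5 and 17.5 CPM in caMNK. Kcnq5, which shares reads with Gm7658, was at 1.37 and 1.21 CPM in pBABE and between 2.68 and 2.86 CPM in caMNK.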

How the data were processed

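RNA of 2 pBABE and 3 caMNK libraries was sequenced. The authors deposited raw read counts per gene symbol, 1 table per library, with a gene length in bases. Per the submitters' processing notes, the build was mm10 and the tools included featureCounts 1.5.3, STAR 2.5.3, Trimmomatic 0.32 and DESeq2; neither the annotation nor the settings of the counter were given in the sources used here. Against GENCODE M21 (same build), 22012 of 28229 multi-exon genes had a deposited length equal to the genomic span and 0 a length equal to the summed exons alone, so counts cover introns. A gene is said to share reads where an overlapping gene has 10% or more of its counts.

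Counts were tested with edgeR 4.0.16 in R 4.3.3 (filterByExpr by group, TMM, robust quasi-likelihood fit, group as the term), with limma 3.58.1 and DESeq2 1.42.0 as alternatives. The SE is the log2 fold change over the square root of F. Totals of 27827199 to 48794336 counts and at least 171 counts per member and library set the precision. The procedure was tested on simulated data. Members and lists were chosen with earlier results of these data known. The naming rule takes all members, Mknk1, the 3 members of each pathway list with the lowest p and those past the threshold up to 6, the 2 most abundant of each marker list, and the 3 genes with a profile most like each member past the threshold. Of the genes this rule takes, 1 is not reported here. Other genes were named after their values were seen.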

Additional observations from a re-analysis of the deposited data

How the results depend on the processing

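The counts of called genes depended on single libraries. Of all genes, 753 rose and 599 fell with all libraries, 11 to 2325 rose and 12 to 2617 fell when each library was left out, 1591 and 1330 without a filter on low counts, and 424 and 288 without genes that share reads, where fewer genes were tested. Of the 9 members, 1 rose and 0 fell; 3 rose by DESeq2 (Snai1, Twist2 and Foxc2), 3 without a filter, 2 with total-count scaling, 0 to 3 when a library was left out, and 0 or 1 fell. Over all 17026 genes tested, 943 rose and 770 fell by DESeq2, and 999 rose and 465 fell with total-count scaling. Foxc2 and Twist2 could not be tested without genes that share reads. With the replicate number as a block, which leaves few degrees of freedom, 1477 genes rose and 1231 fell and 4 members rose; nothing in the labels makes the number a pairing, and the deviations of same-numbered libraries correlated at −0.0549 and −0.0252 across genes. The log2 fold change of Prrx1 was 0.0268 with the block, 0.00838 with total-count scaling and −0.196 to 0.0405 when a library was left out. That of Snai2 was 0.0696 with the block, 0.00844 with the stricter filter, 0.0419 with total-count scaling, 0.00533 where read-sharing genes were left out and −0.13 to 0.0803 with a library left out. Zeb2 ranged from −0.0627 to 0.153, Csf1r from −0.0469 to 0.137 (−0.0494 with the block) and Cd248 from −0.461 to 0.0235. Per kb of exon the pBABE levels were 36.3 CPM for Prrx1, 3.37 for Snai1, 6.65 for Snai2, 9.21 for Tcf4, 41.0 for Twist1, 2.86 for Twist2, 4.36 for Zeb1 and 4.99 for Zeb2. The paralog ratios kept their direction under the smaller pseudocount and with each library left out. Of the 28 named genes past the threshold, 13 passed without caMNK replicate 1, 5 without pBABE replicate 2, and 3 when pBABE replicate 1 was left out. The causes of these differences were not tested.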
